A study of Homo sapiens with 6 samples.

Results

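The transcripts described here were the noncoding RefSeq transcripts (identifiers that start with NR_) sequenced from human osteosarcoma U2OS cells. A transcript was a member where its listed RT stops, divided by the largest listed position, came to at least 0.25 stops per nucleotide in both libraries made without dimethyl sulfate (DMS). Of 15739 transcripts in the 6 libraries, 1794 were NR_ transcripts, and 174 of these passed the minimum. The BC200 RNA gene BCYRN1, MALAT1, NEAT1, GAS5, the SNHG genes, ZFAS1 and EPB41L4A-AS1 were set aside, which removed 18 transcripts and left 156 members. The same minimum kept 4968 NM_ transcripts, the RefSeq mRNAs, which served as the comparison.

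Each library was poly(A)-selected U2OS RNA in which the 3′ ends of truncated cDNAs marked where reverse transcriptase (RT) had stopped. There was 1 library per condition. Both libraries without DMS came from untreated RNA, reverse-transcribed in 150 mM K+ or 150 mM Na+. Both in vitro libraries came from RNA that was refolded and treated with DMS in 150 mM K+ or 150 mM Li+. Both in-cell libraries came from living cells, either unstressed or starved for 2 h, that were exposed to 8% DMS for 5 min. All DMS libraries were reverse-transcribed in 150 mM K+. The names of the 2 files without DMS gave the cations the other way round from their labels, so these libraries are called "labelled K+" and "labelled Na+". The labels and the results of the study name Na+ as the second cation of the RT step, whereas its methods name Li+. RT stops at G were stronger in the library labelled Na+, which the file names give as K+. Whether the labels or the file names are right was not tested. Of 6 genes of mesenchymal cells and osteoblasts, 5 were listed in all 6 libraries, among them VIM, SPARC and COL1A1, and BGLAP was not listed, and of 6 genes of blood and epithelial cells, 2 (HBB and EPCAM) were. Of each 1000000 listed stops VIM had at least 2987 in any library, HBB at most 10.1 and EPCAM at most 2.29, while the osteoblast gene SP7 had at most 3.23. Starved cells stood apart in several of the listed genes. SPARC was at 303 and COL1A1 at 126, against at least 848 and 651 in the other 5 libraries. RUNX2 was at 17.3 against at most 6.48, and HBB at 1.08 against at least 3.92. The part that this shift had in the members' shares was not tested. With 1 library per condition no difference between conditions could be tested against replicates, and every interval given is a 95% interval that covers counting error only.

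A G-quadruplex is a four-stranded nucleic acid fold built from stacked tetrads of guanines. It is stabilized by K+ more than by Na+ and much more than by Li+. An RNA G-quadruplex (rG4) stalls RT at its 3′ edge, which gives a strong stop at a G when the cation favors folding. DMS methylates the base-pairing face of unpaired A and C, which also stops RT, and a nucleotide in a helix or under a bound protein is protected. It also methylates N7 of G unless that position is held in a G-quadruplex. A G-quadruplex that was unfolded during probing can then no longer refold in the K+ of the RT reaction, whereas a folded one can, and its stop is kept. Noncoding RNAs are a mixed group. Most long noncoding RNAs (lncRNAs) are spliced and polyadenylated like mRNAs, although some, NORAD among them, have a single exon, small nucleolar RNAs (snoRNAs) are released from introns and guide the modification of ribosomal RNA, and processed pseudogenes are copies of mRNAs.

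The sequences below are examples of those that carried cation-dependent stops, and not all of the strongest are shown. Each is the 30 nt of the RNA that end at the stopped G, written as DNA and read from GENCODE 44 transcripts placed on GRCh37, with every run of at least 2 G in capitals. The first 4 are among the 5 G stops with the highest enrichment of those stronger in the library labelled Na+, the next 4 lie in DANCR, OIP5-AS1 and NORAD, which are among the most covered members, and the last is one with 4 runs of GGG.
NORAD, nucleotide 2541, chr20:34636342-34636371, minus strand, single exon: aattgttgaaccacctGGGaGGtGGGaGGG
HNRNPA1P33, nucleotide 177, chr10:47133660-47133689, minus strand, exon 2 of 2: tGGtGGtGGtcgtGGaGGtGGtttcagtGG
PSMA3-AS1, nucleotide 1913, chr14:58732612-58732641, minus strand, exon 2 of 2: tagttcatGGGGGaGGGGGatgtgtaagtg
UQCRBP1, nucleotide 242, chrX:56763776-56763805, minus strand, single exon: tgaccatgaagcatcagatcttgcctaaag
DANCR, nucleotide 123, chr4:53579010-53579039, plus strand, exon 2 of 3: agcGGGtttcGGGcGGGccacgcgtgcGGG
OIP5-AS1, nucleotide 1245, chr15:41591117-41591146, plus strand, exon 4 of 4: catagaGGagttGGGGGcagaGGGGGGaGG
NORAD, nucleotide 4144, chr20:34634739-34634768, minus strand, single exon: GGtGGGcagaGGaGGtatgcaGGGagaGGG
NORAD, nucleotide 4418, chr20:34634465-34634494, minus strand, single exon: gaGGGagaagaGGaaGGGtgaaGGGaaGGG
PITPNA-AS1, nucleotide 115, chr17:1420298-1420327, plus strand, exon 1 of 2: cccaGGGGtcaaacgaGGGtcGGGGGtGGG
For contrast, these are the 3 highest G stops that were stronger in the library labelled K+.
OSTCP1, nucleotide 560, chr6:159262784-159262813, minus strand, exon 3 of 3: gagctttttcatGGctagagtattcatgag
MIR4435-2HG, nucleotide 205, chr2:112252488-112252517, minus strand, exon 1 of 2: tcttcagatcttcacagcacagttcctGGG
LINC00324, nucleotide 611, chr17:8126214-8126243, minus strand, exon 2 of 3: tcgcGGcaacgtccgcacgtcGGctcgttg
The 3′ end of the box C/D snoRNA SNORD79 is shown because nucleotide C41 took a larger share of its stops in both in-cell libraries than in either in vitro library. Capitals mark the 3 nucleotides with the most stops in the in vitro K+ library and the 3 in unstressed cells.
SNORD79, nucleotides 29 to 58, chr1:173834511-173834540, minus strand: agatgggAAtctCtctgagaaagAAAatgg

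The members fell into unlike classes. By their RefSeq or GENCODE annotation, 67 were snoRNAs or the related scaRNAs of Cajal bodies, 39 were lncRNAs, 19 were pseudogenes, 12 were microRNA precursors and 7 were other small RNAs. A further 11 carried an NR_ identifier in these files but matched a gene now annotated as protein-coding, several of them encoding very small proteins, and 1, NR_003132, had no name in the tables used. The lncRNA TUG1 was in the protein-coding class by that annotation. The readthrough transcript ATP6V1G2-DDX39B, the pseudogene ANXA2P2 and the snoRNA SNORD57 also matched GENCODE transcripts of protein-coding genes, but were kept in the lncRNA, pseudogene and snoRNA classes by their RefSeq type. The median largest listed position was 100.5 nt over the members, with a range of 11 to 7077 nt, against 2423.5 nt over the NM_ transcripts. The snoRNAs and scaRNAs had a median of 50.0 nt and the lncRNAs of 1042 nt. The file entries covered a median of 41.9% of the nucleotides of a member and 47.8% of an NM_ transcript, and only 11.6% of a pseudogene.

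At the edge of the rule, the snoRNA SNORD77 was the member closest above the minimum, with 0.458 stops per nucleotide under the label K+ and 0.25 under the label Na+, which came from 11 and 3 stops. SVIL-AS1 (0.258 and 0.279) and LINC00963 (0.27 and 0.302) followed. Just outside lay LOC100294145 and SNAR-D, whose lower values both rounded to 0.247.

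The members took a small share of the RT stops, which was lowest in unstressed cells and highest in starved cells. Of the listed stops on all transcripts past the minimum, the members held 0.514% (172654 stops, interval 0.511 to 0.516%) in the library labelled K+, 0.507% in the library labelled Na+, 0.481% in the in vitro K+ library and 0.483% in the in vitro Li+ library. In unstressed cells the share was 0.433% (53802 stops, interval 0.429 to 0.436%), and in starved cells it was 0.722% (166117 stops, interval 0.718 to 0.725%). The starved library thus stood above the other 5. The files list only nucleotides with at least 3 stops, so a shallow library loses more of a weakly covered transcript. With stops estimated from the deposited base means and the transcript length, the shares in unstressed and starved cells were 0.484% and 0.737%. For short RNAs this estimate is not a total, since the listed stops came to between 96% and 124% of it for snoRNAs and scaRNAs and to between 111% and 133% for microRNA precursors. The libraries held 12999691 to 35371061 listed stops, with the fewest from unstressed cells. In bulk RNA, fewer cells with a transcript and less of it in each cell cannot be told apart.

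These stops were spread unevenly over the members. DANCR, a lncRNA named for antagonizing differentiation, had 8.43% of the members' summed mean share, the leading 10 had 45.3% and the leading 50 had 88.5%. Shares of single transcripts are given as SPM, the listed stops per 1000000 on all transcripts past the minimum. DANCR had 374 SPM in the library labelled K+, 392 in that labelled Na+, 402 in the in vitro K+ library, 372 in the Li+ library, 544 in unstressed cells and 564 in starved cells. NORAD, a cytoplasmic lncRNA that binds Pumilio proteins, had 338, 337, 315 and 325 SPM in the same order without cells, 233 in unstressed and 195.7 in starved cells. TUG1 had 315, 302, 310 and 306 in the 4 libraries without living cells and 134 and 207 in cells. These are shares of stops and depend on transcript length as well as on abundance.

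**Figure D1:**
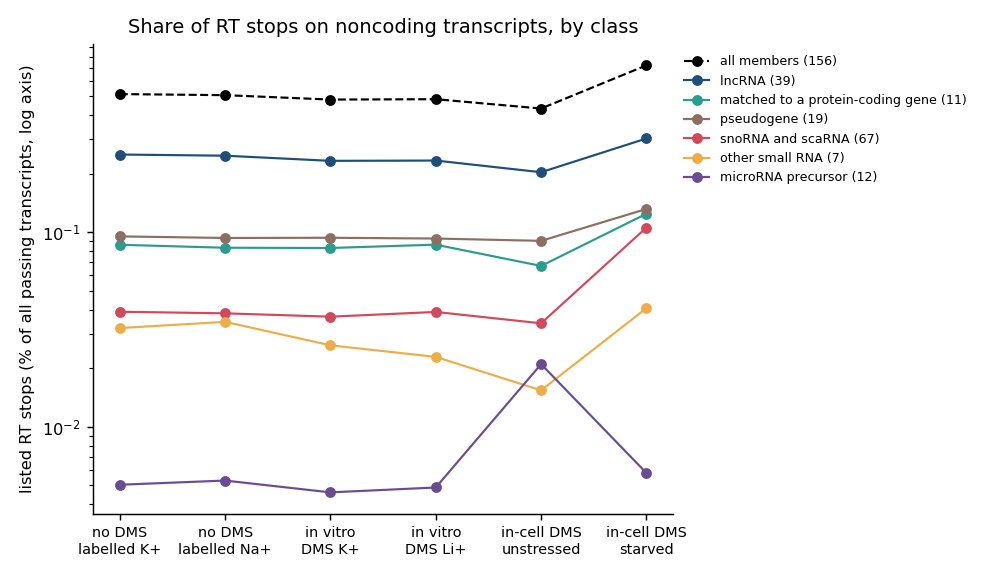
Share of listed RT stops (%, log axis) held by each class of noncoding member in the 6 libraries, 1 library each, with the number of transcripts in brackets. The snoRNA and scaRNA share was between 0.034% and 0.039% in 5 libraries and 0.106% in starved cells, and the microRNA precursors peaked at 0.021% in unstressed cells.

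Between unstressed and starved cells, most of the members that could be compared had a higher share after starvation. Among the 73 members with at least 100 listed stops in both in-cell libraries, the median log2 ratio of shares, starved over unstressed, was 0.72 (quartiles -0.07 and 1.66), which is 1.65-fold. Of these, 31 (42.5%) were at least 2-fold higher and 6 (8.22%) at least 2-fold lower. Over all 4739 transcripts that met the same condition, 17.9% were at least 2-fold higher and 35.2% at least 2-fold lower, and the median was -0.24. Over the 4649 NM_ transcripts the median was -0.27. Only 76 of the 156 members had 100 listed stops in unstressed cells, against 115 in starved cells, which limits the comparison to the better covered ones. With estimated stops the members' median was 0.53, with 27 at least 2-fold higher and 3 at least 2-fold lower. Over all 4739 transcripts the estimate gave a median of -0.20, with 481 at least 2-fold higher and 1337 at least 2-fold lower.

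The ratio differed from class to class. The 33 lncRNAs compared had a median log2 ratio of 0.57, with 10 at least 2-fold higher and 3 at least 2-fold lower. The 9 transcripts matched to protein-coding genes had a median of 1.16 with 5 higher and 1 lower, and the 16 pseudogenes had 0.56 with 4 higher and 0 lower. With estimated stops these medians were 0.30, 0.60 and 0.41, with 8, 4 and 3 higher and 1, 1 and 0 lower. The 11 snoRNAs had the highest median, 1.66, and 10 of them were at least 2-fold higher. Only 13 of the 67 snoRNAs and scaRNAs reached 100 stops in unstressed cells, against 41 in starved cells, so these 11 are the best covered ones.

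**Figure D2:**
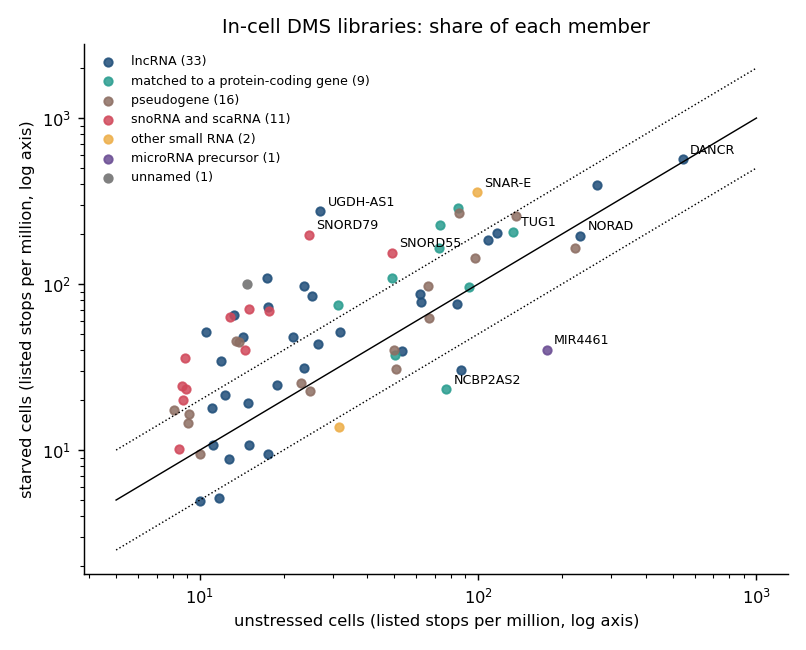
SPM (listed stops per 1000000) in unstressed (x, log axis) and starved (y, log axis) cells for the 73 members with at least 100 listed stops in both, 1 point per transcript, with the line of equality and dotted lines at 2-fold. Most points lie above the line, DANCR lies on it, and MIR4461 and NCBP2AS2 are among the 6 below the lower dotted line.

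By listed stops, the highest ratio of starved to unstressed cells among these 73 members was that of UGDH-AS1, an antisense RNA at the gene for UDP-glucose dehydrogenase. It had 197, 186, 162 and 152 SPM in the 4 libraries without living cells, 27.1 in unstressed cells and 275 in starved cells, from 337 and 6326 listed stops. Starved cells were 10.1-fold higher (interval 9.09 to 11.3), although the unstressed value was also below all 4 of the others. With stops estimated from the base means its log2 ratio was 2.42 in place of 3.34. SNORD79 was 8.02-fold higher (7.14 to 9.03), with 307 and 4556 stops. The unnamed transcript NR_003132 was 6.76-fold higher (5.81 to 7.9), THAP9-AS1 6.21-fold (5.41 to 7.17) and TTC28-AS1 4.94-fold (4.2 to 5.83). THAP9-AS1, NR_003132 and TTC28-AS1 had log2 ratios of 1.71, 1.98 and 1.37 with estimated stops, against 2.64, 2.76 and 2.30 with listed stops.

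The lowest ratio among the same 73 members was that of the microRNA precursor MIR4461. It had 30.4, 28.4, 22.5 and 24.1 SPM in the 4 libraries without living cells, 177 in unstressed cells and 40.2 in starved cells. Its share in starved cells was 0.227 of that in unstressed cells (interval 0.21 to 0.246, from 2196 and 924 stops), and its unstressed value stood apart from the other 5. NCBP2AS2, which encodes a small protein, was at 0.303 of its unstressed share (0.273 to 0.338). LOC283731 was at 0.349 (0.317 to 0.385), with only 10.5% of 57 nt listed. ATP6V1G2-DDX39B, 1 of the 3 lower transcripts in the lncRNA class, was at 0.437 (0.34 to 0.56), and RNU5E-1, a variant of the spliceosomal U5 RNA, was at 0.436 (0.375 to 0.507). The sixth, SVIL-AS1, was at 0.497 (0.382 to 0.646). With estimated stops the log2 ratios of these last 3 were -0.79, -0.89 and -0.76, which is less than 2-fold.

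Of 32 well-known lncRNAs on a list chosen for this comparison, 7 were members, all with at least 100 stops in both in-cell libraries, and 1 of the 7 was at least 2-fold higher in starved cells, which is near the 17.9% of all transcripts. This was CRNDE, at 2.89-fold (2.42 to 3.47), with 148 and 792 stops, but its log2 ratio of 1.53 became 0.96 with estimated stops, under 2-fold. OIP5-AS1, also called cyrano, was 1.73-fold higher (1.63 to 1.84) and TUG1 1.55-fold higher (1.46 to 1.64). CYTOR was at 1.3-fold (1.12 to 1.52) and DANCR at 1.04-fold (1.01 to 1.07). PVT1 was at 0.902 (0.835 to 0.975) and NORAD at 0.839 (0.801 to 0.88) of the unstressed share. The median log2 ratio over the 7 was 0.38. The other leading members by share included WAC-AS1 at 1.48-fold (1.43 to 1.54), FGD5-AS1 at 1.7-fold (1.6 to 1.81), ESRG at 1.61-fold (1.44 to 1.81) and the pseudogene LSP1P4 at 0.741 (0.705 to 0.778). With estimated stops the log2 ratio of ESRG was 0.23 in place of 0.69. ESRG had 269, 259, 250 and 213 SPM in the 4 libraries without living cells, but 31.9 in unstressed and 51.5 in starved cells.

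Several NR_ transcripts that matched small-protein genes were among the well-covered members. SMIM30, which encodes a small integral membrane protein, had 139, 134, 130 and 131 SPM without living cells, 84.8 in unstressed and 286 in starved cells, a 3.37-fold difference (3.16 to 3.6) between the in-cell libraries. SMIM26 was 2.27-fold higher in starved cells (2.11 to 2.45) and CEBPZOS 3.11-fold (2.89 to 3.34), although with estimated stops the log2 ratio of CEBPZOS was 1.00 in place of 1.64. MTLN, which encodes the mitochondrial microprotein mitoregulin, was at 1.03-fold (0.96 to 1.11), and NBDY, whose product associates with the mRNA decapping complex, was at 0.739 (0.666 to 0.821). These transcripts thus did not move together.

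The snoRNAs were also read by family, a split chosen after its values were seen, so that the values are a description. Box C/D snoRNAs, whose symbols start with SNORD, guide the methylation of ribose, and box H/ACA snoRNAs, whose symbols start with SNORA, guide pseudouridylation. The 51 box C/D members together had 353, 347, 335 and 345 SPM in the 4 libraries without living cells, 274 in unstressed cells and 988 in starved cells. That is 3.6-fold (interval 3.47 to 3.74) between the in-cell libraries. The 14 box H/ACA members together had 32.2, 30, 27.3 and 37.4 SPM without living cells, 58.5 in unstressed cells and 57.6 in starved cells, a ratio of 0.985 (0.899 to 1.08). Of 43 box C/D members listed in both in-cell libraries, 42 had a higher share in starved cells, 31 of them by at least 2-fold, and a further 8 were listed in starved cells only. Of all 5142 transcripts past the minimum 13 (0.253%) were listed in starved cells only, and the starved library was the deeper one. Of all 5125 transcripts listed in both, 43.2% had a higher share in starved cells, 18.7% by at least 2-fold, and 36.9% were at least 2-fold lower. Of 14 box H/ACA members, 6 were higher, 2 by at least 2-fold, and 3 were at least 2-fold lower. No filter on depth was applied to these counts, and the members of a family share 1 pair of libraries.

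Most snoRNAs lie in introns of other genes, and a fragment of a mature snoRNA cannot be told apart from one of its unspliced host. For 64 of the 67 a surrounding RefSeq gene was listed in both in-cell libraries. Among the 11 snoRNAs with at least 100 stops in both, the median log2 ratio was 1.66, the 8 host transcripts had a median of 0.90, and 9 of the 11 snoRNAs had a higher ratio than their host. SNORD95 had a log2 ratio of 1.49 and its host RACK1 of -0.40. SNORD79 had 3.0 and SNORD44 2.24, while GAS5, the host of both, had 1.42. SNORD80, which shares that host, had 1.21 and SNORD50A had 1.46 against 2.01 for its host, so these 2 were below. With no minimum of stops, 31 of 41 box C/D and 3 of 13 box H/ACA members had a higher ratio than their host. Among the latter, SNORA18 and SNORA8 had 87 and 62 stops in unstressed cells and log2 ratios of -0.41 and -0.18, whereas their host TAF1D had 2.69 (1.92 with estimated stops). SNORA26, with only 10 stops in unstressed cells, had 3.34 against 0.05 for its host DANCR. Each pair shares its 2 libraries, and the part that poly(A) selection or RNA processing had in these ratios was not tested.

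The transcripts annotated as microRNA precursors together had a lower share in starved than in unstressed cells. The 12 had 210 SPM in unstressed cells and 57.8 in starved cells, against 45.9 to 52.8 in the 4 libraries without living cells. Of 8 listed in both in-cell libraries 6 were at least 2-fold lower in starved cells and 2 were at least 2-fold higher, against 36.9% and 18.7% of all transcripts listed in both. No filter on depth was applied here either, and some of the 6 had few stops. MIR614 had 8 in unstressed and 5 in starved cells (ratio 0.338, interval 0.0869 to 1.17), and MIR4737 had 12 and 4 (0.18, 0.0423 to 0.594). MIR4461 supplied 2196 of the 2607 stops in unstressed cells. Without it the other 11 had 33.1 SPM in unstressed and 17.6 in starved cells, against 19.8 to 24.5 in the other 4 libraries, and their ratio was 0.532 (0.463 to 0.612) in place of 0.275 (0.258 to 0.294). MIR3648-1 had 127 stops in unstressed cells and 9 in starved cells, MIR663A had 39 and 15, and MIR3687 had 87 and was not listed. A fragment of a precursor cannot be told apart from one of a longer transcript over the same sequence. MIR663A matched a GENCODE transcript of MIR663AHG, itself a member of the lncRNA class, with 40 stops in unstressed and 3 in starved cells. The part that longer transcripts had in these values was not tested. The catalytic-RNA subunits differed from each other, with RMRP, of the RNase MRP complex, at 0.898 (0.679 to 1.19) and RPPH1, of RNase P, at 2.81-fold (2.13 to 3.77). SNAR-E, a short RNA of the family that binds nuclear factor 90, was 3.61-fold higher in starved cells (3.4 to 3.84), with 274, 296, 213 and 185 SPM without living cells and 98.8 and 357 in cells. Only 20.4% of its 98 nt were listed, and the single nucleotide C83 took 31.1% of its stops in the library labelled K+. The SNAR genes are near copies of each other, so its values are uncertain.

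DMS shifted the stops of noncoding transcripts to A and C as it did on mRNAs. On the members, A and C together took 54.5% of the stops in the library labelled K+, 53.7% in that labelled Na+, 85.2% in the in vitro K+ library and 84.3% in the Li+ library. In cells they took 90.0% without stress and 80.2% after starvation. On NM_ transcripts the values were 52.3%, 51.1%, 83.5%, 82.6%, 88.2% and 77.9%. In pooled stops the members were thus higher in each of the 6 libraries. The median over transcripts with at least 100 stops went the other way in the DMS libraries, with 88.8% on the members and 90.0% on NM_ transcripts for in vitro K+, 87.2% and 88.2% for in vitro Li+, 93.5% and 94.1% without stress, and 81.2% and 84.3% after starvation.

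**Figure D3:**
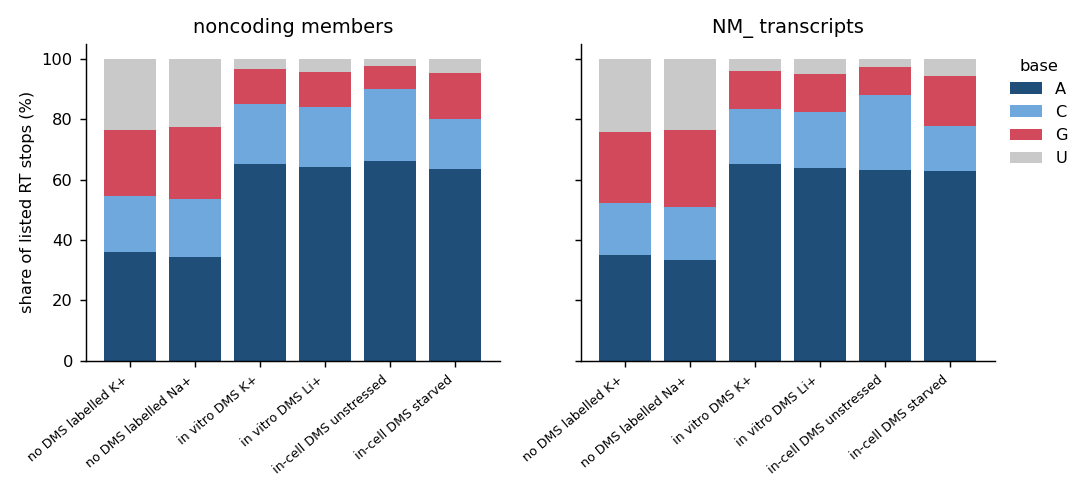
Share of listed RT stops (%) at A, C, G and U on the 156 noncoding members and on the 4968 NM_ transcripts in the 6 libraries, as stacked bars from 0. A and C together took at least 77.9% of the stops with DMS and at most 54.5% without it.

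The composition in starved cells differed from that in unstressed cells in the same way on both kinds of transcript. On the members C took 23.9% of the stops in unstressed and 16.6% in starved cells, whereas G took 7.77% (interval 7.55 to 8.0%) and 15.1% (15.0 to 15.3%). The share at A was 66.1% and 63.6%. On NM_ transcripts C went from 25.0% to 14.8% and G from 9.23% to 16.5%. Per transcript, 72 of the 73 members with at least 100 stops in both had a lower A and C share in starved cells, as had 4599 of the 4649 NM_ transcripts. The median difference was -10.1 points on the members and -9.8 points on the NM_ transcripts. Among the members, DANCR went from 87.2% to 74.1%, NORAD from 90.9% to 80.9% and TUG1 from 96.2% to 86.1%.

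In pooled stops, the classes of small RNA had a lower share at A and C in vitro, and single members weighed heavily in these shares. In the in vitro K+ library, A and C took 86.7% of the stops on lncRNAs, 90.5% on the transcripts matched to protein-coding genes and 83.6% on pseudogenes, but 77.8% on snoRNAs and scaRNAs, 75.6% on other small RNAs and 63.1% on microRNA precursors. SNORD55 supplied 1868 of the 7546 snoRNA and scaRNA stops, and without it the share was 84.8%. SNAR-E supplied 4372 of 5376 stops on other small RNAs, and MIR4461 supplied 461 of 942 on microRNA precursors, which were at 75.7% without it. The medians over transcripts with at least 100 stops were 92.0% over 34 lncRNAs, 89.0% over 10 transcripts matched to protein-coding genes, 85.8% over 18 pseudogenes, 85.5% over 16 snoRNAs and scaRNAs and 77.6% over 4 other small RNAs. In unstressed cells the snoRNAs and scaRNAs reached 91.2%, close to the 91.0% of lncRNAs, whereas the microRNA precursors were at 72.3%. In starved cells the snoRNA value was 77.6%.

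How alike the stops at A and C were between libraries varied from transcript to transcript. The likeness was taken as Pearson's r of log2 stops over the A and C nucleotides of a transcript, for members with at least 300 listed stops in all 4 DMS libraries. It is given as a description, since nucleotides of 1 transcript share libraries and depth. DANCR (396 nucleotides) had r = 0.82 between the in vitro libraries, 0.78 between the in-cell libraries and 0.73 between in vitro K+ and unstressed cells. NORAD (1143 nucleotides) had 0.41, 0.57 and 0.25, and TUG1 (2046 nucleotides) had 0.11, 0.41 and 0.11. SNORD79 (26 nucleotides) had 0.74 and 0.97, with 0.45 between in vitro K+ and unstressed cells but 0.82 between in vitro Li+ and unstressed cells. Over the 34 such members the medians were 0.56, 0.36 and 0.37, and over 3666 NM_ transcripts 0.28, 0.35 and 0.21. The classes differed, with 0.74, 0.64 and 0.69 over 8 pseudogenes, some compared at few nucleotides (19 in ANXA2P2). The medians were 0.41, 0.31 and 0.30 over 13 lncRNAs. Over the 9 transcripts matched to protein-coding genes they were 0.24, 0.29 and 0.27.

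The nucleotide that stopped RT most often in SNORD79 was not the same in cells as in vitro. C41 took 67 of 307 stops in unstressed cells, or 21.8% (interval 17.6 to 26.8%), and 776 of 4556, or 17.0% (16.0 to 18.2%), in starved cells. It took 14 of 1226 stops in the in vitro K+ library, or 1.14% (0.681 to 1.91%), and 0.549% (0.307 to 0.981%) in the in vitro Li+ library. A53 went the other way, with 10.9% (9.3 to 12.8%) in the in vitro K+ library and 9.19% in the Li+ library, against 4.89% (2.98 to 7.9%) without stress and 3.49% (2.99 to 4.06%) after starvation. Without DMS, C41 had 3.21% and 3.01% and A53 had 3.43% and 4.3%, with the label K+ first. In the sequence printed above, C41 is the capital C and A53 the middle of the last 3 capitals, and the GENCODE sequence matched 49 of 50 listed bases.

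SNORD55 and SNORD42A had such nucleotides too. In SNORD55, C34 took 18.1% (15.3 to 21.4%) of the stops in unstressed cells and 7.21% (6.4 to 8.1%) in starved cells, against 3.21% (2.5 to 4.11%) in vitro in K+ and 3.35% in Li+. A31, 3 nucleotides upstream, was high in all 4 DMS libraries, at 16.6%, 13.4%, 10.1% and 10.9% in the order unstressed, starved, in vitro K+ and in vitro Li+. In SNORD42A, A28 took 12.6% (9.69 to 16.3%) in vitro in K+ and 21.5% in Li+ but 3.14% (1.35 to 7.15%) in unstressed and 5.23% in starved cells. A20 took 12.6% (8.29 to 18.6%) and 13.6% in cells but 2.32% (1.23 to 4.35%) in vitro in K+. Both also stopped RT without DMS, A28 at 8.08% and 8.41% and A20 at 7.37% and 5.58% under the labels K+ and Na+. A37, the highest in unstressed cells, took 24.5% (18.5 to 31.8%) there and 11.1% after starvation, against 10.1% in the in vitro K+ library, 7.01% in the Li+ library and 0.439% and 0.756% without DMS. These nucleotides were chosen because they had the most stops in a library, so their differences are a description.

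**Figure D4:**
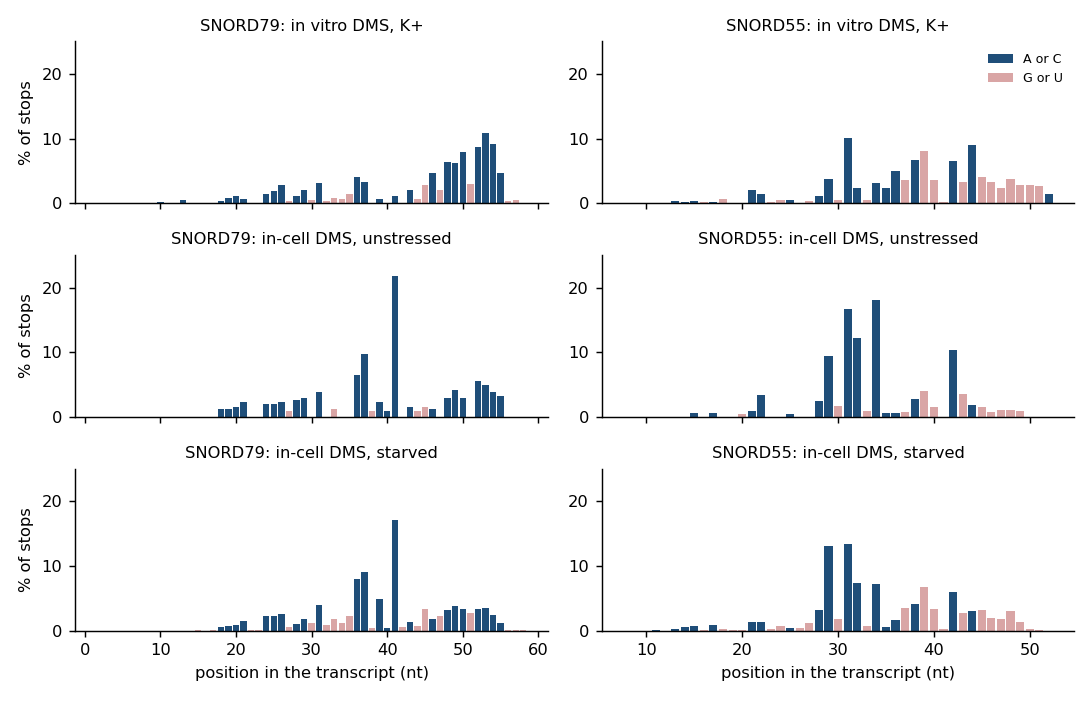
Share of the stops of SNORD79 (left) and SNORD55 (right) at each nucleotide (x, position in the transcript in nt), as bars from 0, for the in vitro K+ library and the unstressed and starved in-cell libraries, with A and C in dark blue and G and U in pale red. C41 is the tallest bar of SNORD79 in both in-cell libraries, and the last A run is tallest in vitro.

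Strong RT stops were taken as nucleotides with at least 10 stops and at least 10 times the mean of the transcript (E ≥ 10). The members had 551 strong stops in the library labelled K+ and 544 in that labelled Na+, which is 2.45% and 2.56% of their listed nucleotides. Over all transcripts 0.274% and 0.427% of the listed nucleotides were strong. In the DMS libraries 3.89% of the members' nucleotides were strong in vitro in K+ and 3.51% in Li+, with 6.69% in unstressed cells and 3.94% in starved ones, against 0.776%, 0.709%, 3.61% and 1.79% over all transcripts. With DMS, 74.2% of the members' strong stops in vitro in K+ were at A, as were 76.0% and 76.2% in unstressed and starved cells. The share at G was 6.42% in the in vitro K+ library and 7.22% in the Li+ one, 5.34% (3.67 to 7.71%) without stress and 11.5% (9.29 to 14.1%) with starvation, and on NM_ transcripts 3.41%, 2.19%, 1.09% and 4.11%. Pseudogenes held 13 of the members' 26 strong G stops in unstressed cells and 43 of 78 in starved cells. On lncRNAs G held 4.58% (2.58 to 8.02%) and 7.0% (4.48 to 10.8%) of the strong stops. On snoRNAs and scaRNAs it held 0 of 20 and 0 of 19.

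Most of the members' strong stops without DMS lay on transcripts with few listed nucleotides. In the libraries without DMS, 7 members held 52.2% of the strong stops: the pseudogenes TPM3P9 (100 in the library labelled K+ and 87 in that labelled Na+), RPL31P11, PTMAP11 and ANXA2P2, the unnamed NR_003132, ATP6V1G2-DDX39B and MTLN. In these, between 3.19% and 22% of the nucleotides were listed. ATP6V1G2-DDX39B alone had 43 of the 143 strong stops of the lncRNA class under the label K+. The 34 members with under 25% of their nucleotides listed had 479 of the 551 strong stops in the library labelled K+. The other 122 had 72 under the label K+ and 100 under Na+, or 0.94 and 1.31 per kb, against 0.46 and 0.86 on NM_ transcripts split in the same way. The part that reads shared with near-identical mRNAs had in these stops was not tested, and values for pseudogenes are uncertain for that reason.

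Without DMS, G was the leading base of strong stops on mRNAs in the library labelled Na+, whereas A, with 34.9%, was on the members. G held 28.1% (interval 24.5 to 32.0%) of the members' strong stops in the library labelled Na+ and 23.4% (20.1 to 27.1%) in that labelled K+, against 55.6% and 25.6% on NM_ transcripts. Among the 122 members with at least 25% of their nucleotides listed, the share in the library labelled Na+ was 40% (30.9 to 49.8%). For NM_ transcripts of that kind it was 63.8% (62.9 to 64.8%). On lncRNAs it was 32.5% (25.7 to 40.2%). The intervals of the members and the NM_ transcripts did not overlap in the library labelled Na+. Strong stops on 1 transcript are not independent.

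Strong G stops that differed between the 2 libraries without DMS lay mostly on the side of the label Na+. Of the members' 153 strong G stops in the library labelled Na+, 43 (28.1%, interval 21.6 to 35.7%) were at least 2-fold stronger there than in the library labelled K+. Over all transcripts 75.6% were. The value differed with the part of a transcript listed, as 30 of 40 were (75%, 59.8 to 85.8%) on the 122 members with at least 25% of their nucleotides listed and 13 of 113 (11.5%, 6.85 to 18.7%) on the other 34. On NM_ transcripts split in the same way, 81.3% and 59.3% were. Of the 129 in the library labelled K+, 8 (6.2%, 3.18 to 11.8%) were at least 2-fold stronger there, against 20% over all transcripts. That was 2 of 14 on the 122 members and 6 of 115 on the other 34. A nucleotide that was not listed in the other library was counted as 2 stops, the most it can have had. Within 30 nt the 43 stops merged to 28 regions on 23 transcripts, and the 8 gave 8 regions on 8 transcripts. Of all strong stops at least 2-fold stronger in the library labelled Na+, G held 48.9% on the members and 81.2% on NM_ transcripts, against 12.7% and 22.8% of those stronger in the library labelled K+. By the file names the 28 regions would be the ones stronger in K+, and which assignment is right was not tested.

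NORAD carried the strongest of them. At G2541 it had 498 stops in the library labelled Na+ and 3 in that labelled K+, for an E of 209 against 1.19. In the DMS libraries, all reverse-transcribed in K+, the same nucleotide had E of 6.79 in vitro in K+, 3.29 in Li+, 3.34 without stress and 2.42 after starvation, from 12, 8, 3 and 3 stops. Only the library labelled Na+ was high. NORAD had 2 more regions, at G4144 with 54 stops against 10 and at G4418 with 25 stops against none listed. LINC03033 had 97 stops at G854 in the library labelled Na+ and was not listed there in the library labelled K+, which makes E 57.0 against at most 1.15. PSMA3-AS1 had 69 against 5 at G1913, and HNRNPA1P33, a pseudogene of an RNA-binding protein gene, 51 at G177 against none listed. UQCRBP1 had 32 against 16 at G242, a 2.22-fold difference in E, and no run of 2 G in its window.

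DANCR had the most stops of any such region after NORAD. At G123 it had 418 in the library labelled Na+, or 3.35% of its stops there, and 22 in that labelled K+, for an E of 28.3 against 1.47. In the DMS libraries it had 16 stops in vitro in K+ and 20 in Li+, was not listed in unstressed cells and had 12 stops in starved cells. OIP5-AS1 had 82 against 3 at G1245, where 4 adjoining strong stops merged, and 5, 8, 3 and 10 stops in the order in vitro K+, in vitro Li+, unstressed and starved. TUG1 had 43 at G112 against none listed, and the small RNA SNAR-F 154 against 19 at nucleotide 67. Neither of these 2 nucleotides could be placed on a GENCODE transcript, so no window is given for them. PITPNA-AS1 had 36 at G115 and MIR3648-1 44 at nucleotide 36, both against none listed in the library labelled K+.

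**Figure D5:**
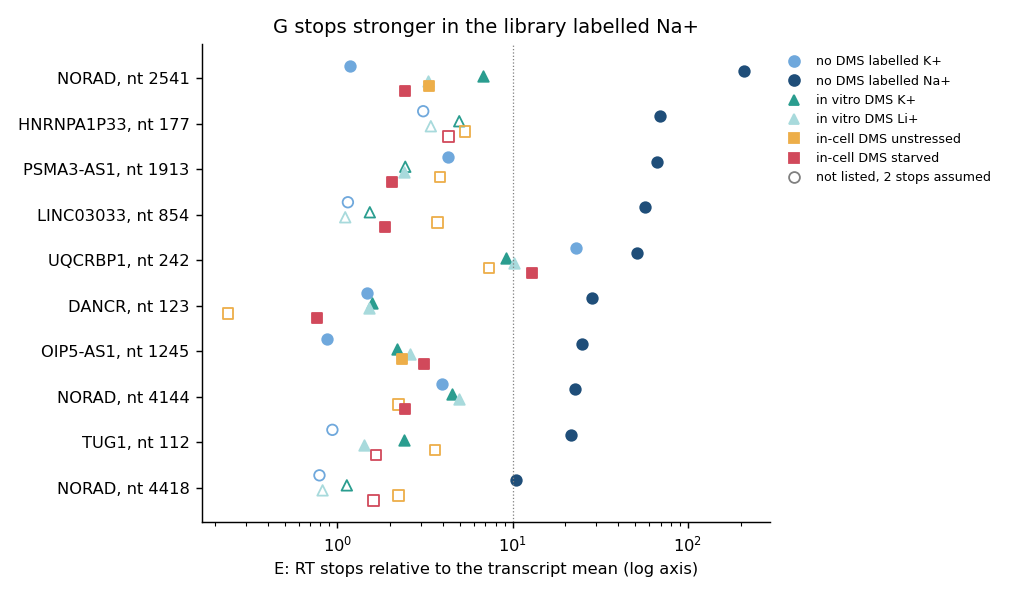
E (stops relative to the transcript mean, log axis) in the 6 libraries at the 5 G stops with the highest E among those stronger in the library labelled Na+ and at those in NORAD, DANCR, OIP5-AS1 and TUG1, with open symbols where a library did not list the nucleotide and 2 stops were assumed. The library labelled Na+ lies at or above an E of 10.5 at each of them, and the other 5 libraries lie below 10 except at UQCRBP1.

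The regions stronger in the library labelled K+ had fewer stops. The highest, OSTCP1 at G560, had 18 stops against 7, and the largest counts among the 8 were 21 against 8 in TPM3P9 and 21 against 5 in CHASERR, a lncRNA next to CHD2. In CHASERR E was 12.5 against 3.18. LINC00324 had a region in each direction only 9 nt apart, at G611 with 10 stops in the library labelled K+ against 5 and at G620 with 13 in the library labelled Na+ against 3.

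The windows before these stops differed in their G runs. Of the 26 regions stronger in the library labelled Na+ that could be placed, 17 (65.4%) had at least 4 runs of at least GG in the 30 nt that end at the stop, counted on the RNA strand. Of the 8 stronger in the library labelled K+, 0 had. Among all 26737 windows that end at a G in the GENCODE transcripts matched to 90 members, 8.12% had. These transcripts were read in full, and for some snoRNAs they were those of host genes such as GAS5 and SNHG1. Some of the 26 regions, such as those in WAC-AS1 and PITPNA-AS1, lay on members outside the 90. The 8.12% is therefore only a rough background for the members. At least 1 run of GGG was present in 18 of the 26 (69.2%) and in 1 of the 8, against 31.6% of all such windows. Such a match describes the letters and does not show that a fold is formed.

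Few of these regions were listed in both in-cell libraries. Of the 28 regions stronger in the library labelled Na+, 13 were listed in both in vitro libraries, and in 7 of them E was higher in K+ than in Li+, with a median log2 ratio of 0.06. On NM_ transcripts 925 of 1255 such regions were higher in K+, with a median of 0.46. Only 3 of the 28 were listed in both in-cell libraries, and in 2 of these E was higher in starved cells, with a median log2 ratio of 0.41, against 437 of 498 and 1.25 on NM_ transcripts. With 3 and 13 regions the depth did not allow a comparison with the NM_ transcripts. Of the 28, 12 were listed in starved cells and 4 in unstressed cells, and the starved library was the deeper of the 2 on the members.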

How the data were processed

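The deposited tables list, per nucleotide of a transcript, where it had 3 or more RT stops, the stop count and its ratio to the mean count of the same base in that transcript, both made by the authors after alignment with Bowtie (hg19, unique hits without mismatches, version not given in the sources used here). Counts under 3 are missing, and such a nucleotide was given 2 stops where E was compared. RNA fragments were selected by size on gels before RT, which bears on the small RNAs. Every library was labelled by the submitters' treatment field. Transcript means were rebuilt from the deposited ratio and count values (base means weighted by the bases listed in any library), and E is the count over this mean. Members were named from RefSeq (142) or by a match to GENCODE 44 (13), at an identity of at least 97% over at least 80% of listed bases. Named genes were the 10 members with the highest mean share, members on the lncRNA list, the 5 largest rises and falls, the 5 highest cation-dependent G stops in each direction and the 3 transcripts on each side of the minimum. Some of these are not reported here. The members, lists and examples were chosen with earlier results of these data known. The snoRNA family split and the snoRNA nucleotides were chosen after their values were seen, and the cell type markers after the other results. Share intervals are Wilson intervals and ratio intervals exact binomial ones, at 95%. The authors removed duplicate reads before counting, and intervals cover counting error only. The code was tested on simulated counts. Tools were Python 3.11 with numpy, pandas, scipy and matplotlib.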

Additional observations from a re-analysis of the deposited data

How the results depend on the processing

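No paired analysis was possible because there was 1 library per condition and the labels give no replicate numbers, and for the same reason no replicate could be left out. With the cations assigned by file name, strong stops at G came to 28.1% for K+ and 23.4% for Na+, and 43 strong G stops were stronger in K+ and 8 in Na+. The ratio of the members' share, starved over unstressed, was 1.67 and ranged from 1.49 to 1.82: 1.58 with a minimum of 1 stop per nucleotide, 1.82 with 0.1, 1.76 without DANCR, 1.49 with lncRNAs only, 1.62 with libraries thinned to equal totals and 1.52 with estimated stops. Of the 31 members at least 2-fold higher, 20 met a minimum of 1 and 10 were lncRNAs. The 6 at least 2-fold lower became 3 among lncRNAs and 3 with estimated stops. The A and C share was lower in starved cells by a difference of -9.83 points, and of -10.3 (minimum 1), -9.06 (minimum 0.1), -9.38 (lncRNAs), -8.39 (thinned) and -12.3 (difference between the medians of the 76 and 115 members with at least 100 stops in each library). G took 24.2% of strong stops in the library labelled Na+ with a minimum of 0.1 or with E of at least 5, 23.8% with E of at least 20 and 32.5% on lncRNAs. Without members with under 25% of nucleotides listed, an alternative added after the data were seen, as was the estimate of stops, it took 40%, and 19.4% in the library labelled K+. The 43 strong G stops stronger in the library labelled Na+ became 27 (minimum 1), 75 (minimum 0.1), 27 (thinned), 94 (E of at least 5) and 20 (E of at least 20). The 8 stronger in the library labelled K+ became 3 (minimum 1), 25 (minimum 0.1), 4 (lncRNAs), 5 (thinned), 57 (E of at least 5), 2 (E of at least 20), 30 (at least 3 stops), 2 (at least 20 stops), 0 (at least 4-fold) and 2 without thinly listed members. The share of regions with higher E in starved cells, 2 of 3, became 100% when thinned and 0% with the deposited ratio. The other 84 values of these results moved by less than their counting interval or by less than 1.5 times. The cause of each shift was not tested. A minimum of 1 left 71 members and one of 0.1 kept 251, and every member was the only transcript of its gene.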
